A study of Mus musculus with 8 samples.

Results

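The genes described here are the 6 that encode the receptors and ligands of the platelet-derived growth factor (PDGF) system in the mouse: the receptors Pdgfra and Pdgfrb and the ligands Pdgfa, Pdgfb, Pdgfc and Pdgfd. Every probe set whose platform annotation names exactly 1 gene, that gene being one of the 6, was taken, which gave 14 of the 45037 probe sets that are not controls. Pdgfra and Pdgfd are read by 3 probe sets each and the other 4 genes by 2 each. Of the 14, 13 passed the filter on dim probe sets, and each of the 6 genes kept at least 1. The samples were subcutaneous fat of 8 male mice, called diabetic in the series title and labelled 8 weeks, each dosed 5 days a week over 10 weeks. The 4 placebo mice (numbers 6, 8, 10 and 14) received only water, by a route the labels leave out. The 4 treated mice (numbers 5, 9, 11 and 13) received an aqueous dose of niacin-bound chromium (NBC), in which chromium is complexed with nicotinic acid, by gavage at 10 mg/kg. The labels name neither the strain nor how the mice became diabetic. Each mouse was read on 1 Affymetrix Mouse Genome 430 2.0 array, and values are MAS5 signals on a linear scale.

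PDGF ligands are secreted dimers that bind and join receptor tyrosine kinases at the cell surface. The alpha receptor binds the A, B and C chains, and the beta receptor binds the B and D chains. The A and B chains are cut inside the cell by proprotein convertases, while the C and D chains are secreted in a latent form and are cut outside it by plasminogen activators. In fat, the alpha receptor is known as a marker of fibroblasts and adipocyte progenitors and the beta receptor as a marker of the mural cells of small vessels and of part of the fibroblasts, and endothelial cells release PDGF-B.

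The arrays shared a trimmed mean of 1500.01, with medians of 285.5 to 329.6. The adipocyte markers Adipoq and Fabp4 averaged 98493 and 133950 in placebo mice and 95192 and 132900 in NBC mice, so markers of the labelled tissue were present in both groups. The summed signal of 10 skeletal muscle markers ranged from 4585 to 22951 over the placebo group. NBC mouse 9 had 17076 and the other 3 NBC mice 150921 to 165711. The ratio of the 3' to the 5' Gapdh control probe set, which rises as RNA degrades, was 0.924 to 1.04 in placebo mice and 0.844 (mouse 9), 1.115 (mouse 13), 1.28 (mouse 11) and 1.47 (mouse 5) in NBC mice. Because all 8 samples are bulk tissue, more cells of a type and more RNA per cell cannot be told apart in any value below.

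The comparison of NBC with placebo asked which transcripts of this depot differed after supplementation. Of the 6 genes, Pdgfrb had higher signals in all 4 NBC mice than in all 4 placebo mice, in both of its probe sets, by about 1.5 times. The signals of Pdgfra and of the 4 ligands overlapped between the groups in every probe set. None of the 13 probe sets kept passed limma's moderated test after Benjamini-Hochberg adjustment over the 22519 probe sets tested, where 0% passed (0 of 22519, smallest adjusted p = 0.653). At an unadjusted limma p under 0.05, 2 of the 13 counted, both of Pdgfrb, against 6.22% of all probe sets (1400 of 22519). The same 2 of 13 had no overlap between groups, against 3.85% of all probe sets (866 of 22519). Counted by gene with the brightest kept probe set, 1 of the 6 had an unadjusted p under 0.05 against 5.44% of the 11662 genes tested, and 1 of 6 had no overlap against 3.93%. The median log2 difference (NBC minus placebo) over the 6 genes was 0.000588, and over all 11662 genes it was -0.00641.

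The receptor gene Pdgfrb was read by the probe sets 1436970_a_at and 1417148_at. With 1436970_a_at, the placebo mice 6, 8, 10 and 14 read 5599, 5628, 5924 and 6182, and the NBC mice 5, 9, 11 and 13 read 8888, 7470, 10387 and 8081. The lowest NBC mouse, mouse 9, thus stood above the highest placebo mouse, mouse 14. The group means were 5833 ± 275 (SD, n = 4) and 8706 ± 1262 (SD, n = 4), a ratio of 1.49. With 1417148_at, the placebo mice read 1443, 1269, 1403 and 1604 and the NBC mice 1899, 1948, 2436 and 2187 in the same order. Here too no NBC mouse reached down to the placebo range, and mouse 11 was the highest of all 8 in both probe sets. The means were 1430 ± 138 and 2117 ± 247 (SD, n = 4 each), a ratio of 1.48.

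On the log2(signal + 26) scale, the Pdgfrb difference was 0.57 (SE 0.13, 95% interval 0.27 to 0.86) for 1436970_a_at and 0.56 (SE 0.13, interval 0.26 to 0.85) for 1417148_at. These intervals correspond to 1.21 to 1.81 times and 1.20 to 1.80 times the placebo level. The limma p was 0.00179 and 0.00194, which ranked 48 and 50 among the 22519 probe sets, and the adjusted p was 0.653 for both. The two-sided exact permutation p was 0.0286 for each, the smallest that 4 against 4 mice allow. The log2 distance between both probe sets in the same mouse differed by 0.00998 between groups (exact permutation p = 0.914).

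**Figure D1:**
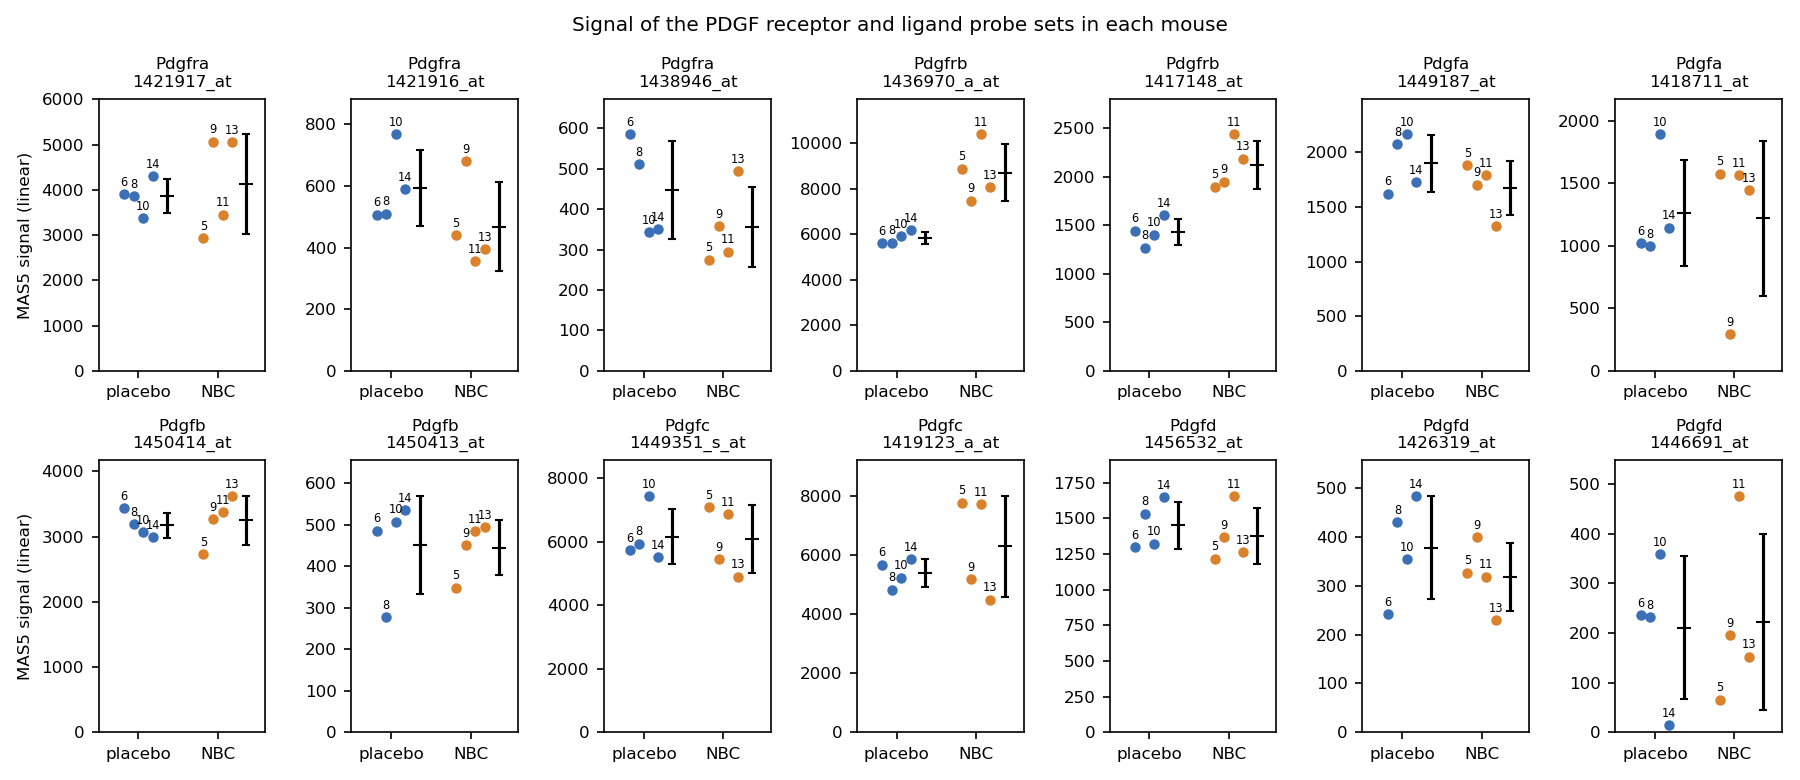
MAS5 signal (linear, y axes from 0) of each of the 14 probe sets of the 6 genes, 1 panel per probe set, with placebo mice in blue, NBC mice in orange and mouse numbers above the points; black marks are the group mean with SD (n = 4). Both Pdgfrb panels show all NBC mice above all placebo mice (7470 to 10387 against 5599 to 6182 for 1436970_a_at), and in the other 12 panels the groups overlap.

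Fibroblast markers were also higher in NBC mice. The summed signal of 12 fibroblast and progenitor markers was 245456 to 277692 in placebo and 299067 to 337178 in NBC mice, without overlap. All 12 markers lay above 0 in log2 difference, with a median of 0.35, 5 had an unadjusted limma p under 0.05, and 0 passed after adjustment. Of all 11662 genes, 48.5% lay above 0 and 5.44% had an unadjusted p under 0.05. The 12 markers include the fibril-associated collagen Col14a1 (0.73, SE 0.13), the adventitial fibroblast marker Pi16 (1.60, SE 0.33) and the collagen VI chain Col6a3 (0.43, SE 0.15). This list was drawn up with earlier results for Col14a1, Pi16, Col6a3 and Col1a1 in these samples known. Those genes and Col1a2 are the 5 with an unadjusted limma p under 0.05. Neither the direction of the list nor the count of 5 is therefore independent of the earlier results. The mean of the list, used next as a reference for Pdgfrb, includes Col14a1, Pi16, Col6a3 and Col1a1 and is not independent of those results either. Measured against the mean log2 value of these 12 markers in the same mouse, Pdgfrb stood at -0.88 to -0.64 in placebo and -0.78 to -0.37 in NBC mice, a group difference of 0.14 (exact permutation p = 0.229) with overlap.

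Markers of mural cells did not separate the groups. The 9 pericyte and smooth muscle markers kept summed to 70709 to 107697 in placebo and 65496 to 97540 in NBC mice, with 8 of 9 above 0, a median of 0.075 and none at an unadjusted limma p under 0.05. The pericyte gene Rgs5 averaged 16793 ± 2627 and 19956 ± 4805 (SD, n = 4 each), and Cspg4, which encodes the pericyte proteoglycan NG2, averaged 1750 ± 231 and 2058 ± 400. Mcam, the only marker of the 9 below 0, averaged 13131 in placebo and 11256 in NBC mice (log2 difference -0.23, SE 0.15). Relative to these 9 markers in the same mouse, Pdgfrb was 0.51 higher in NBC mice on the log2 scale, with mouse 9 (0.48) below placebo mouse 14 (0.50) and an exact permutation p of 0.0571. Relative to the 10 endothelial markers it was 0.59 higher, and relative to the 8 adipocyte markers 0.66 higher, each without overlap (exact permutation p = 0.0286). Relative to the 5 Schwann cell markers it was 0.58 higher, also without overlap (exact permutation p = 0.0286). Relative to the 10 macrophage markers it was 0.34 higher, with overlap (exact permutation p = 0.257, adjusted 0.374). With any 1 placebo mouse left out the exact permutation p of the endothelial comparison was 0.0571, as was that of the adipocyte comparison without placebo mouse 6 or 10. The regroupings are fewer with 1 mouse left out, and both comparisons remained without overlap. Adjusted over the 16 comparisons with marker lists made for Pdgfra and Pdgfrb, the p of the pericyte, endothelial, adipocyte and Schwann cell comparisons was 0.152. That of the fibroblast list was 0.374. The comparisons with marker lists were chosen after the values of the 6 genes were known. Those of Pdgfrb all use the same Pdgfrb values, which separated the groups by themselves, so they are not separate results.

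The skeletal muscle signal and the Gapdh ratio were highest in 3 of the 4 NBC mice. The relation of each to Pdgfrb is described below. Whether either accounts for the Pdgfrb difference between groups was not tested. The same ratio for beta-actin was 1.515 to 1.745 in placebo mice, 2.10 and 1.82 in NBC mice 5 and 11, and within the placebo range in NBC mice 9 (1.515) and 13 (1.557). In NBC mouse 9 the muscle sum (17076) lay within the placebo range and the Gapdh ratio (0.844) below it. Pdgfrb in that mouse read 7470 and 1948, above the placebo maxima of 6182 and 1604. Within the NBC group, the muscle sum and Pdgfrb 1436970_a_at fell in the same order, from mouse 11 through mice 5 and 13 to mouse 9. With 1417148_at the order was mice 11, 13, 9 and 5. Placebo mouse 14 read highest of its group in both Pdgfrb probe sets and had the lowest muscle sum (4585). These orders were not tested. Without mouse 9 the Pdgfrb difference was 0.64 for 1436970_a_at. Across the 8 mice, Pearson's r between the Gapdh ratio and Pdgfrb was 0.706 (exact permutation p = 0.046, 0.224 adjusted over 6 genes) and Spearman's rho was 0.571 (exact permutation p = 0.151, adjusted 0.453). Without NBC mice 5 and 11, the farthest from the median ratio, r was 0.155, over a narrower range of the ratio. After each group was centred on its mean, r was 0.625. It was 0.704 within the NBC mice and -0.459 within the placebo mice. The macrophage markers also lay higher, with 10 of 10 above 0, a median of 0.21 and sums of 96084 to 142930 in placebo and 126970 to 194216 in NBC mice, with overlap. That median was 0.051 without NBC mouse 13 and 0.36 without NBC mouse 5. The 10 endothelial markers split 4 above and 6 below 0 (median -0.032), the 8 adipocyte markers 1 and 7 (median -0.052), the 4 platelet markers 2 and 2 (median 0.029), the 5 Schwann cell markers 4 and 1 (median 0.042) and the 2 epithelial markers 1 and 1 (median 0.26). All 10 muscle markers lay above 0, with a median of 3.92.

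**Figure D2:**
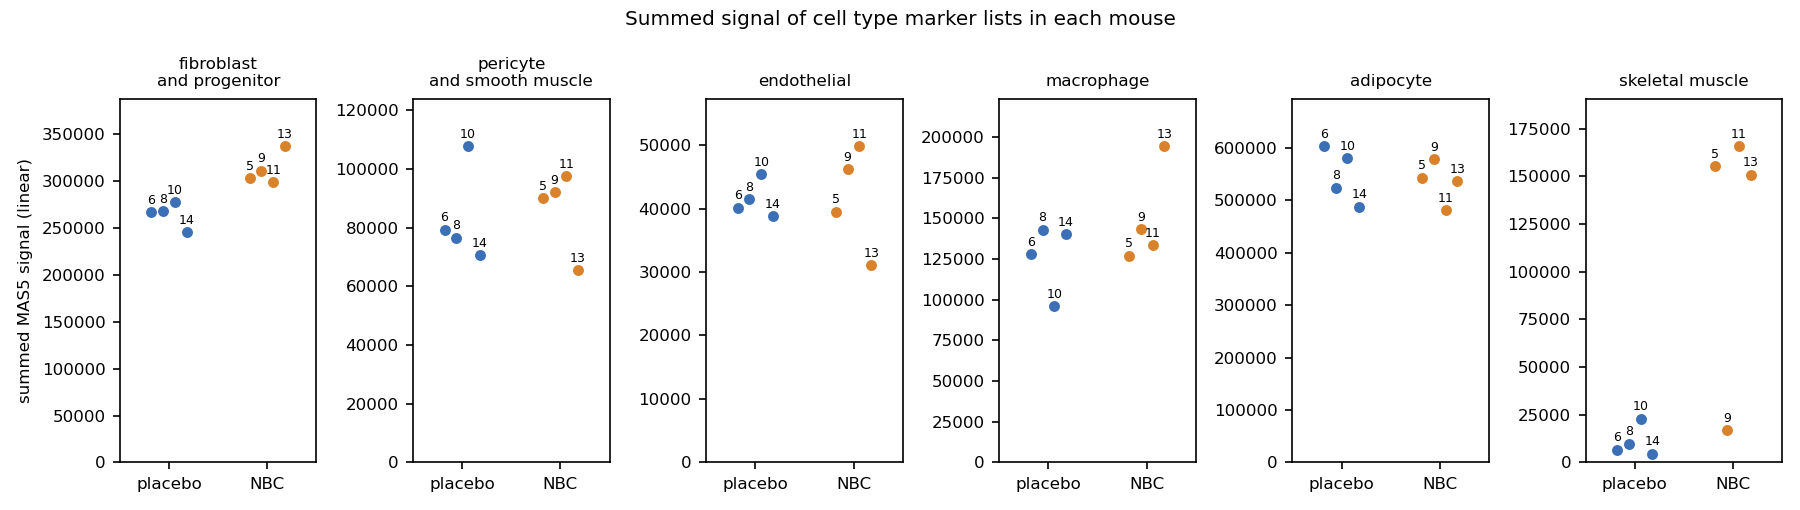
Summed MAS5 signal (y axes from 0) of the kept genes of 6 marker lists, with 1 point per mouse, placebo in blue and NBC in orange, and mouse numbers above the points. The fibroblast and progenitor sums of the NBC mice lie above all placebo mice, the pericyte, endothelial, macrophage and adipocyte sums overlap, and the skeletal muscle sum of NBC mouse 9 lies within the placebo range.

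Pdgfra, the alpha receptor gene, gave no common direction. With its brightest probe set, 1421917_at, placebo mice 6, 8, 10 and 14 read 3914, 3869, 3384 and 4299, and NBC mice 5, 9, 11 and 13 read 2938, 5066, 3454 and 5062. The NBC mice fell apart into a low pair, mice 5 and 11, and a high pair, mice 9 and 13, which lay above all placebo mice. The means were 3866 ± 375 and 4130 ± 1099 (SD, n = 4 each), with a log2 difference of 0.060 (SE 0.20, 95% interval -0.38 to 0.50, limma adjusted p = 0.967). The interval allows anything from 0.767 to 1.42 times the placebo level.

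The dimmer Pdgfra probe sets leaned the other way. With 1421916_at the means were 594 ± 122 and 469 ± 146 (SD, n = 4 each; log2 difference -0.35, SE 0.22), and NBC mouse 9 (682) was the only treated mouse above the placebo minimum of 507. With 1438946_at they were 447 ± 120 and 355 ± 99.0 (SD, n = 4 each; log2 difference -0.31, SE 0.23), again with overlap, and the limma adjusted p was 0.811 and 0.831. Over the 8 mice the log2 values of 1421917_at and 1421916_at were nearly unrelated, and those of 1421917_at and 1438946_at were only loosely related. The differences between the brightest probe set and the other 2 were 0.41 and 0.37 higher in NBC mice, without passing the exact permutation test (p = 0.257 and 0.171, adjusted 0.857 over the 10 probe set pairs of the 6 genes). The NBC mice with low Pdgfra in 1421917_at, mice 5 and 11, were also those with the highest Gapdh 3' to 5' ratios, 1.47 and 1.28. Pearson's r between that ratio and Pdgfra was -0.661 (exact permutation p = 0.0747, adjusted 0.224) with Spearman's rho of -0.571 (exact permutation p = 0.151, adjusted 0.453), and r was -0.0251 without those 2 mice. After each group was centred on its mean, r was -0.859.

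Among the ligands, Pdgfb, the chain that endothelial cells release toward mural cells, differed by less than its spread in both probe sets. Its probe set 1450414_at gave placebo mice 6, 8, 10 and 14 signals of 3433, 3191, 3070 and 2995, and NBC mice 5, 9, 11 and 13 signals of 2730, 3269, 3373 and 3620. The NBC mice spanned both the lowest and the highest value of the 8. The means were 3173 ± 192 and 3248 ± 375 (SD, n = 4 each), which gave a log2 difference of 0.028 (SE 0.12, 95% interval -0.25 to 0.31, limma adjusted p = 0.977), or 0.840 to 1.24 times the placebo level. The dimmer probe set 1450413_at averaged 452 ± 118 and 445 ± 66.8 (SD, n = 4 each).

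Pdgfa, a ligand of the alpha receptor, had a lower mean in NBC mice without passing a test. With 1449187_at the placebo mice read 1624, 2077, 2166 and 1730 and the NBC mice 1886, 1704, 1793 and 1323. All 4 NBC mice lay below placebo mice 8 and 10, and 3 of them above placebo mouse 6. The means were 1899 ± 263 and 1676 ± 247 (SD, n = 4 each), which gave a log2 difference of -0.18 (SE 0.15, 95% interval -0.53 to 0.17, limma adjusted p = 0.855). The second probe set, 1418711_at, held a value far from its group on each side: placebo mouse 10 read 1892 against 995 to 1147 in the other 3, and NBC mouse 9 read 293 against 1443 to 1576. Its log2 difference of -0.25 (SE 0.51) became 0.32 without mouse 9.

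Pdgfc, a ligand secreted with a CUB domain, was read by 1449351_s_at and 1419123_a_at. With 1449351_s_at the placebo mice read 5738, 5932, 7435 and 5507 and the NBC mice 7082, 5437, 6865 and 4893. The spread within each group exceeded the distance between them. The means were 6153 ± 872 and 6069 ± 1071 (SD, n = 4 each), with a log2 difference of -0.027 (SE 0.16, 95% interval -0.39 to 0.34, limma adjusted p = 0.985). With 1419123_a_at NBC mice 5 and 11 (7788 and 7738) stood above all placebo mice (4833 to 5865) and mouse 13 (4493) below them, which gave a log2 difference of 0.18 (SE 0.20, limma adjusted p = 0.888).

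Pdgfd, the CUB-domain ligand of the beta receptor, differed by less than its spread. With 1456532_at the placebo mice read 1300, 1532, 1323 and 1646 and the NBC mice 1218, 1369, 1658 and 1262. NBC mouse 11 was the highest and NBC mouse 5 the lowest of the 8. The means were 1450 ± 167 and 1377 ± 198 (SD, n = 4 each), which gave a log2 difference of -0.077 (SE 0.14, 95% interval -0.40 to 0.24, limma adjusted p = 0.934). The probe set 1426319_at averaged 377 ± 105 and 318 ± 69.9 (SD, n = 4 each), and 1446691_at, the only one below the filter, ranged from 14.4 to 476.

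**Figure D3:**
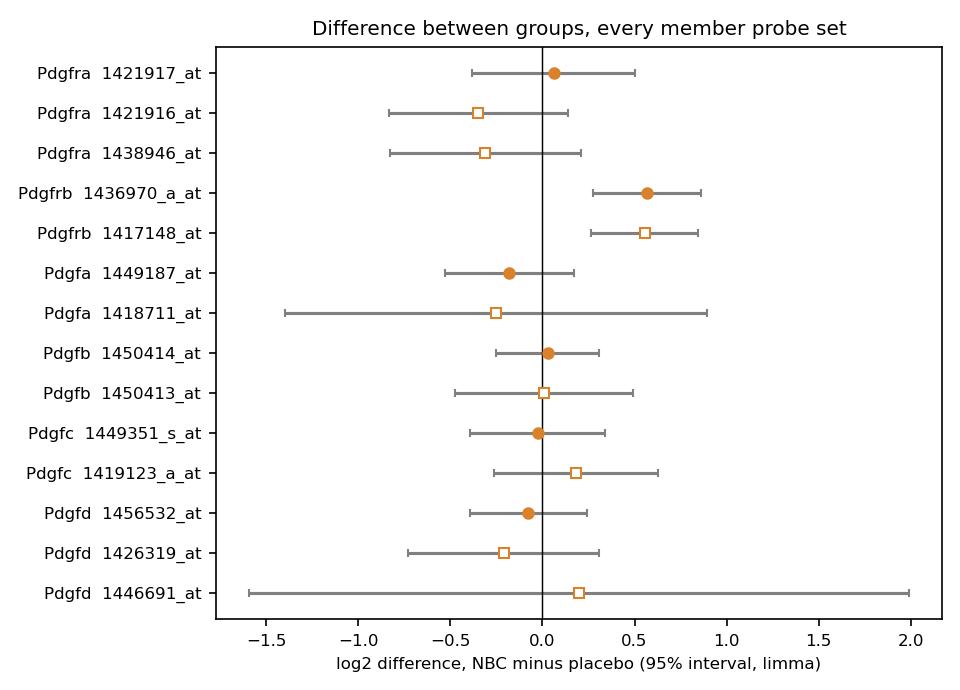
Log2 difference (NBC minus placebo) of each member probe set with its 95% interval from limma's fit, where filled circles are the brightest probe set of a gene, open squares its other probe sets, and 1446691_at comes from the fit without the filter on dim probe sets. The intervals of both Pdgfrb probe sets (0.27 to 0.86 and 0.26 to 0.85, unadjusted) lie above 0 and those of the other 12 include 0.

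The difference of Pdgfrb was set against that of each other member within the same mouse. The log2 distance of Pdgfrb to Pdgfa was 0.75 greater in NBC than in placebo mice, to Pdgfd 0.64, to Pdgfc 0.59 and to Pdgfb 0.54, each without overlap between groups (two-sided exact permutation p = 0.0286). All of these distances use the same Pdgfrb values, which separated the groups by themselves, so they are not separate results. The distance of Pdgfrb to Pdgfra was 0.51 greater with overlap (exact permutation p = 0.171), and NBC mice 9 and 13 lay above all placebo mice in both receptors. Adjusted over the 15 pairs of members, the p was 0.107 for each of the 4 ligands and 0.429 for Pdgfra. With the mean of each gene's probe sets the distance to Pdgfra was 0.76 greater (exact permutation p = 0.0286), to Pdgfc 0.48 (exact permutation p = 0.0571) and to Pdgfd 0.59 (exact permutation p = 0.114). With the brightest probe sets, the distance to Pdgfb missed 0.05 with any 1 placebo mouse left out (exact permutation p = 0.0571 to 0.0857). That to Pdgfc did so without NBC mouse 13 (exact permutation p = 0.0571). The regroupings are fewer with 1 mouse left out, and both distances remained without overlap between groups. No pair among Pdgfra and the ligands separated the groups, with differences of -0.21 to 0.24.

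Within the family, the signals of Pdgfra and Pdgfc ran in opposite directions from mouse to mouse. Pearson's r of their brightest probe sets over the 8 mice was -0.914 (exact permutation p = 0.00213, 0.032 adjusted over the 15 pairs) and Spearman's rho was -0.952 (exact permutation p = 0.00114, adjusted 0.0171). Without NBC mice 5 and 9, the farthest from the median of Pdgfra, r was -0.958. It was -0.914 after each group was centred on its own mean. With the other Pdgfc probe set r was -0.714 (exact permutation p = 0.0471, 0.105 adjusted over the 6 probe set combinations), and rho was -0.595 (exact permutation p = 0.132). With the Pdgfra probe set 1438946_at r was -0.613 and -0.712 (exact permutation p = 0.109 and 0.0526), and with 1421916_at it was 0.0976 and -0.406 (exact permutation p = 0.812 and 0.316). Of the 11661 other genes, 117 (1%) had an absolute r to Pdgfra at least as large as that of Pdgfc, 60 (0.515%) of them on the negative side. Against the Gapdh 3' to 5' ratio, Pearson's r was -0.661 for Pdgfra and 0.483 for Pdgfc (exact permutation p = 0.0747 and 0.229, adjusted 0.224 and 0.458). After each group was centred, these were -0.859 and 0.615, and without NBC mice 5 and 11 they were -0.0251 and -0.181. The part of this ratio in the Pdgfra and Pdgfc correlation was not tested. Pdgfa and Pdgfc leaned in parallel (r = 0.776, exact permutation p = 0.0186, adjusted 0.139, and rho = 0.857, exact permutation p = 0.0107, adjusted 0.0804). Their r was 0.387 without NBC mouse 13 and placebo mouse 10, the farthest from the median of Pdgfa. After each group was centred on its mean it was 0.833. With the mean of each gene's probe sets it was 0.526 (exact permutation p = 0.186). No other pair had a Pearson p under 0.05, and Pdgfra with Pdgfa had a rho of -0.762 (exact permutation p = 0.0368, adjusted 0.184).

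**Figure D4:**
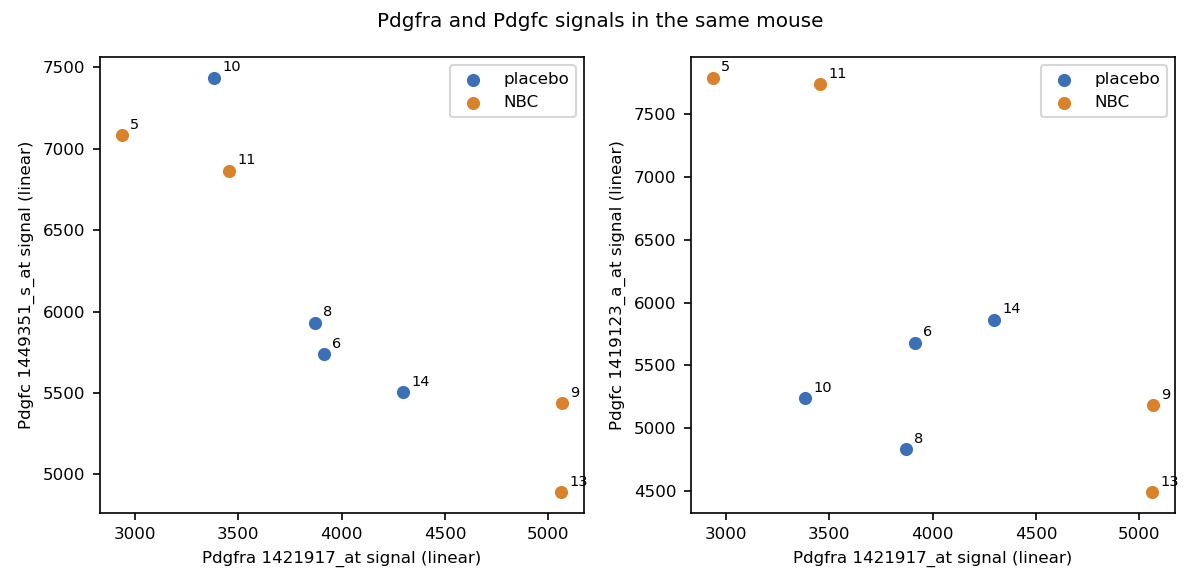
Signal of Pdgfra 1421917_at (x axis, linear) against that of Pdgfc in the same mouse (y axis, linear), with 1449351_s_at on the left and 1419123_a_at on the right, placebo in blue, NBC in orange, mouse numbers beside the points and axes that do not start at 0. On the left the points descend from mice 5, 10 and 11 to mice 9 and 13 (r of log2 values -0.914), and on the right the descent is looser (r = -0.714).

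The other genes of the pathway were read from 4 lists of 60 genes, of which 52 were measured above the filter. With the brightest probe set of each gene, none of the 52 passed after adjustment (smallest limma adjusted p = 0.767). By the same probe sets, 2 (3.85%) had an unadjusted p under 0.05 against 5.44% of all genes, and 3 (5.77%) had no overlap against 3.93%. Of the 52, 33 lay above and 19 below 0, with a median log2 difference of 0.0557. The shares called are near those of all genes, while 48.5% of all genes lay above 0, with a median of -0.00641.

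Of the 9 genes for ligand processing and co-receptors, 7 lay above and 2 below 0, with a median of 0.021. The convertase genes Furin, Pcsk5, Pcsk6 and Pcsk7 differed by 0.050, 0.021, 0.0043 and 0.0079. Plat, the plasminogen activator that cuts PDGF-C, differed by -0.044, and Plau, the one that cuts PDGF-D, by 0.25 (SE 0.36). Lrp1, an endocytic receptor that forms complexes with the beta receptor, read 10797 ± 1533 and 13056 ± 1286 (SD, n = 4 each; log2 difference 0.28, SE 0.14, limma adjusted p = 0.780). The co-receptor Nrp1 was read by 4 probe sets that disagreed: the brightest differed by -0.099 (SE 0.12) and 1457198_at by 0.53 (SE 0.14), without overlap. Sparc, a matrix protein that binds PDGF-B, differed by 0.051 (SE 0.11).

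Of 21 genes of receptor signalling, 7 lay above and 14 below 0, with a median of -0.055. Ptpn11, which encodes the phosphatase SHP-2 that binds activated PDGF receptors, averaged 24457 ± 1256 for placebo and 21145 ± 1245 for NBC (SD, n = 4 each), with no overlap. The log2 difference was -0.21 (SE 0.11, limma adjusted p = 0.781). Its second probe set 1421196_at gave -0.62 (SE 0.13), also with no overlap, and the remaining one, 1427699_a_at, -0.053 (SE 0.27). The regulatory subunit gene Pik3r1 of phosphoinositide 3-kinase differed by -0.24 (SE 0.13) and the catalytic subunit genes Pik3cb and Pik3ca by -0.27 (SE 0.18) and 0.18 (SE 0.13). The other Pik3r1 probe sets disagreed in sign, with 0.272 (SE 0.165), -0.676 (SE 0.31) and -0.182 (SE 0.274). With the brightest probe set of each gene, none of the 21 had an unadjusted limma p under 0.05. For Ptpn11 1421196_at, a dimmer probe set, the limma p was 0.000821 (adjusted 0.653).

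Of 9 genes that attenuate the receptors, 8 lay above and 1 below 0, with a median of 0.13. Ptpn2, a phosphatase that acts on receptor tyrosine kinases, averaged 5399 ± 209 for placebo and 6812 ± 779 for NBC (SD, n = 4 each), without overlap. Its log2 difference was 0.33 (SE 0.12, limma adjusted p = 0.767), and its unadjusted p was under 0.05. Its second probe set gave 0.13 (SE 0.13). Ptpn12 also had no overlap with its brightest probe set, at 13719 ± 385 and 15034 ± 443 (SD, n = 4 each; log2 difference 0.13, SE 0.098), while 2 of its 3 other probe sets lay below 0 (-0.34 and -0.36). The phosphatase genes Ptpn1 and Ptprj differed by 0.30 (SE 0.14) and 0.16 (SE 0.12), while the Ptpn1 probe set 1438670_at gave -0.0016 (SE 0.19).

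Of 13 genes known to be induced by PDGF in cultured fibroblasts, 11 lay above and 2 below 0, with a median of 0.19, and none passed after adjustment. The median was 0.11 without placebo mouse 10 and 0.32 without placebo mouse 8. The early response gene Ier3 read 868 ± 170 and 1205 ± 186 (SD, n = 4 each), with overlap. Its log2 difference was 0.47 (SE 0.17, limma adjusted p = 0.776), and its unadjusted p was under 0.05. The cyclin gene Ccnd1 differed by 0.34 (SE 0.18) and by 0.54 (SE 0.18) and 0.23 (SE 0.17) in its other probe sets. The early response genes Ier2 and Egr1 differed by 0.30 (SE 0.18) and 0.37 (SE 0.33), with Egr1 between 3060 and 9219 in placebo mice alone. These genes answer many signals other than PDGF.

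Of 15 related receptors and ligands, 9 lay above and 6 below 0, with a median of 0.012. Csf1r, the macrophage receptor of the same receptor class, read 34399 ± 3144 and 43513 ± 6162 (SD, n = 4 each; log2 difference 0.33, SE 0.13, limma adjusted p = 0.778) without overlap, although its probe set 1423593_a_at gave 0.029 (SE 0.20). The vascular endothelial growth factor receptor gene Flt1 differed by 0.40 (SE 0.17) and its other 3 probe sets by -0.022 to 0.11. The ligand gene Vegfb differed by -0.30 (SE 0.13). Pdgfrl, which encodes a receptor-like protein related to the PDGF receptors, had signals of 237, 361, 233 and 352 in the placebo group (mice 6, 8, 10 and 14) and 288, 449, 365 and 824 in the NBC group (mice 5, 9, 11 and 13), so that mouse 13 stood apart and the groups overlapped (log2 difference 0.58, SE 0.30, limma adjusted p = 0.781).

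**Figure D5:**
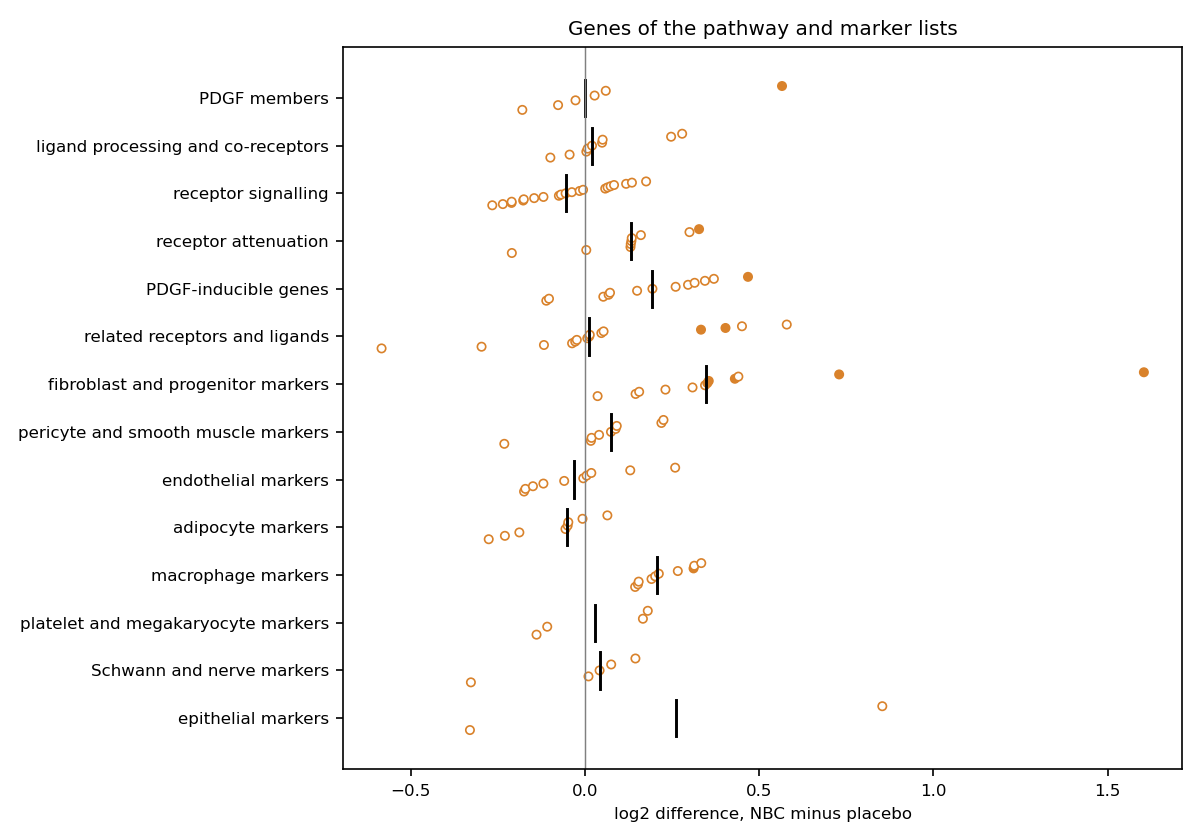
Log2 difference (NBC minus placebo, x axis) of every kept gene of the PDGF family, the pathway lists and the marker lists, with 1 point per gene at its brightest probe set, filled where the unadjusted limma p was under 0.05, and black bars at list medians; the skeletal muscle list, with a median of 3.92, lies beyond this axis and is left out. Pdgfrb (0.57) is the only filled point among the 6 PDGF genes, and all 12 fibroblast points and all 10 macrophage points lie above 0.

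By the likeness of log2 signals over the 8 mice among 11661 other genes, the genes nearest to Pdgfrb were F13a1, Tnxb and Lars (Pearson's r = 0.968, 0.959 and 0.949, or 0.855, 0.862 and 0.806 after each group was centred). F13a1 encodes the A subunit of coagulation factor XIII and Tnxb the matrix protein tenascin-X. The nearest to Pdgfra were Itgam, an integrin gene of myeloid cells, Fnip1 and Myo5a (0.984, 0.979 and 0.978). The nearest to Pdgfa were Plppr2, Stmn2 and Sesn2 (0.969, 0.966 and 0.963), to Pdgfb Wdr41, Txndc5 and Pdp1 (0.973, 0.954 and 0.933), to Pdgfc Akap8l, Nudt18 and Grsf1 (0.982, 0.975 and 0.974) and to Pdgfd Nacc2, Cenpc1 and Selenon (0.937, 0.933 and 0.924). These values describe the closest of many genes over 8 arrays that share a scaling.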

How the data were processed

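Total RNA of 8 mice was biotin-labelled and read on 1 array each. The deposited values are linear signal intensities, 1 per probe set. The submitters' processing notes name MAS5 as the tool, without a version. MAS5 sets perfect-match against mismatch probes, which leaves dim probe sets noisy. No label gives a batch or a scan time. Groups and mouse numbers came from the sample titles. Each array is a different mouse number, and p-values measure the spread between these 8 mice only.

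Of 45101 probe sets, 64 controls were left out. Signals were used as deposited and transformed as log2(signal + 26), the 10th percentile of all values, so differences understate the change of dim genes. The 22519 probe sets with a mean at or above the median (a signal of 275) were tested with limma 3.58.1 (lmFit and eBayes, group as the one term; R 4.3.3) at an adjusted threshold of 0.05 (Benjamini-Hochberg), and the fit was tested on simulated data. A gene was represented by its brightest kept probe set (11662 genes). Exact permutation tests were two-sided, over 70 regroupings of 8 mice or all pairings. Single-array signals, correlations and list medians were computed from the same values. The platform annotation gave gene names, checked through Entrez identifiers against RefSeq (0 changed).

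The 6 genes and the lists were chosen with earlier results of these data known, and the comparisons between members, with marker lists, with the Gapdh ratio and between Pdgfra and Pdgfc probe sets were added after seeing the data. Alternatives were other pseudocounts, filters and scalings, array weights, the mean of a gene's probe sets and leaving out each mouse. Named were all member probe sets, up to 4 genes per pathway list by unadjusted p plus those without overlap, up to 3 per marker list, and the 3 nearest genes of each member; Furin, Pcsk5, Pcsk6, Pcsk7, Plat, Adipoq and Fabp4 were added after their values were seen. Some listed genes were not analysed here, and Has2 lay below the filter. No sequence or coordinate was used.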

Additional observations from a re-analysis of the deposited data

Results flagged for a closer look

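Values far from the rest of their group of 4, by Dixon's criterion (the gap to the nearest mouse as a share of the group's range), were found 11 times in 148 groups of member probe sets, named genes and list sums, where chance gives about 1 in 20. In the Pdgfa probe set 1418711_at, placebo mouse 10 stood high at 1892 (next 1147) and NBC mouse 9 low at 293 (next 1443), while neither mouse stood apart in the brighter probe set 1449187_at. Placebo mouse 10 also stood high in the summed signal of the ligand processing and co-receptor genes (167000, next 148850), in Mcam (15275, next 12585) and in Rgs5 (20693, next 16015). NBC mouse 9 stood low in the summed skeletal muscle markers (17076, next 150920) and in Actn3 (574, next 9309).

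Among the remaining marker genes, Eng was low in placebo mouse 14 (4275, next 4529) and Krt5 was high in placebo mouse 6 (640, next 282). Slc2a4 was high in NBC mouse 11 (6388, next 4925), and Gp5 was low in the same mouse (277, next 413). The causes of these values were not tested.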

How the results depend on the processing

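No paired analysis was possible because the groups share no mouse number. The Pdgfrb difference kept its direction and missed the adjusted threshold in all 18 alternatives (0.48 without NBC mouse 11 to 0.64 without NBC mouse 9; limma adjusted p 0.210 to 0.974 with 1 mouse left out), as did that of 1417148_at in 16. Pdgfa and Pdgfd also kept their direction (-0.25 to -0.072 and -0.17 to -0.015 with 1 mouse left out). Near 0, Pdgfra turned to -0.038 with array weights and -0.20 as the mean of all probe sets, and ranged from -0.051 to 0.21 with 1 mouse left out. Pdgfc turned to 0.060 and 0.078 under the same settings, with -0.11 to 0.071. Pdgfb ranged from -0.026 to 0.11 and its probe set 1450413_at from -0.20 to 0.11, with -0.0038 after arrays were centred on their medians. The Pdgfa probe set 1418711_at gave 0.029 with array weights and -0.46 to 0.32 with 1 mouse left out.

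Over all probe sets, 0 to 19 passed with 1 mouse left out (19 without NBC mouse 9), none of them of the 6 genes, and 1039 (without placebo mouse 8) to 2556 (without NBC mouse 9) had an unadjusted p under 0.05. That count was 2396 without the filter, 884 with a filter at the 75th percentile and 2126 with array weights. The Pdgfra and Pdgfc correlation was -0.94 to -0.87 over 15 alternatives. With 1 mouse left out, list medians near 0 changed sign for ligand processing (-0.0098 without NBC mouse 11), related receptors (-0.020 without placebo mouse 6), endothelial (0.069 without NBC mouse 13), platelet (-0.083 without placebo mouse 14) and Schwann cell genes (-0.070 without NBC mouse 11). Those of receptor signalling (-0.12 to -0.026) and pericyte markers (0.018 to 0.19) kept their sign, as did those of attenuation (0.11 to 0.16) and fibroblast markers (0.29 to 0.39). The number of arrays limits every value.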
